A study of Mus musculus with 12 samples.

Results

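The cytosolic ribosomal proteins are the protein parts of the large and small subunits of the ribosome that translates nuclear-encoded mRNA. They were taken here by gene symbol alone, as Rpl or Rps followed by a number, with Rplp0, Rplp1, Rplp2 and Rpsa; pseudogene symbols and the Rps6k kinases were left out. The rule found 88 of the 52459 genes in the table, 52 of the large and 36 of the small subunit, and it used no measured value. Of these, 81 passed the filter for testing (at least 1 TPM in at least 3 libraries) and 7 did not. The groups are choroid plexus of B6 mice at 4 ages, namely mid-gestation embryos (E12.5), newborns (P0), postnatal day 14 (P14) and adults of 6 months (A6m), with 3 libraries each and 12 in all. The tissue was dissected from the animals without sorting, and the labels name no treatment or allele for these animals, nor their sex, nor which ventricle was sampled or whether animals were pooled.

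Choroid plexus is an epithelium with a vascular stroma that lies in the brain ventricles and secretes cerebrospinal fluid. Ribosomal proteins are made in roughly matched amounts and join ribosomal RNA in the nucleolus, so that mRNA of nearly all of them is abundant in any cell that makes protein, and most abundant in growing and dividing cells. Their mRNAs are known to begin with an unbroken run of pyrimidines, through which mTOR signalling adjusts their translation. Their genes have left many processed pseudogenes in the mouse genome, some of them nearly identical to the parent mRNA.

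As a check of the tissue, all 15 epithelial markers averaged over 1 TPM after birth and 14 of 15 did in embryos; transthyretin (Ttr), the secreted protein that defines the epithelium, took 13.7 to 16.9% of all TPM at the later ages and 1.12 to 2.10% at E12.5. The summed level of 15 epithelial markers was 13175 to 24433 TPM at E12.5, 150716 to 152511 in P0 tissue, 182325 to 197479 at P14 and 175072 to 181133 at A6m. The 13 erythroid markers in the table summed to 55814 to 62869 TPM at E12.5, 6656 to 13505 in P0 tissue, 778 to 909 at P14 and 149 to 565 at A6m, and 20 proliferation markers to 1518 to 1644, 306 to 310, 121 to 131 and 85.3 to 96.2 TPM at the same ages. Fibroblast markers summed to 166 to 237 TPM at A6m and 1003 to 1337 TPM at E12.5, endothelial markers to 21.6 to 34.0 and 322 to 365 TPM, mural markers to 13.4 to 23.0 and 144 to 204 TPM, macrophage markers to 23.7 to 39.9 and 147 to 190 TPM, and neuron and progenitor markers to 9.79 to 11.04 and 72.6 to 175 TPM at the same ages. No marker was listed at 0 in all libraries of an age except Neurog1 at P0, P14 and A6m. Library E12.5 replicate 1 stood apart, with 16.4% of its TPM in 6 features, among them Mir6236, Gm42418 and Lars2, that held 0.949 to 3.28% in the other libraries. Xist, which marks cells with an inactive X chromosome, was at 148 to 155 TPM at A6m, at 0.430 to 0.808 TPM at P0 and P14, and at 139, 0.389 and 89.5 TPM in the E12.5 libraries. Ddx3y, a gene of the Y chromosome, was at 0.122 to 0.366 TPM at A6m, 108 to 117 at P0 and 80.1 to 93.2 at P14. In the E12.5 libraries Ddx3y was at 9.26, 54.4 and 50.9 TPM.

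The family took a smaller part of the mRNA pool at each later age. Members summed to 7.61, 6.93 and 7.37% of all TPM in the E12.5 libraries, 4.94, 4.78 and 4.53% at P0, 2.79, 2.81 and 3.17% at P14 and 2.58, 2.61 and 2.83% at A6m. No P0 library reached the lowest E12.5 library and no P14 library the lowest P0 library, whereas the P14 and A6m libraries overlapped. The means were 7.30 ± 0.344, 4.75 ± 0.204, 2.92 ± 0.212 and 2.67 ± 0.138% (SD, n = 3 each). TPM is a share of a fixed sum, and the mitochondrially encoded transcripts took 11.2 to 17.7% of it at E12.5, 19.9 to 22.4% in P0 tissue, 28.7 to 32.6% at P14 and 31.3 to 34.0% at A6m. As a share of nuclear-encoded TPM alone, members stood at 8.48 ± 0.0762, 6.02 ± 0.216, 4.21 ± 0.210 and 3.96 ± 0.152% in the order of age. In tissue without cell sorting, fewer cells of a type and less RNA per cell cannot be told apart, and the summed TPM of the erythroid and proliferation markers given above was lower at the later ages as well; their part in the member values was not tested.

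**Figure D1:**
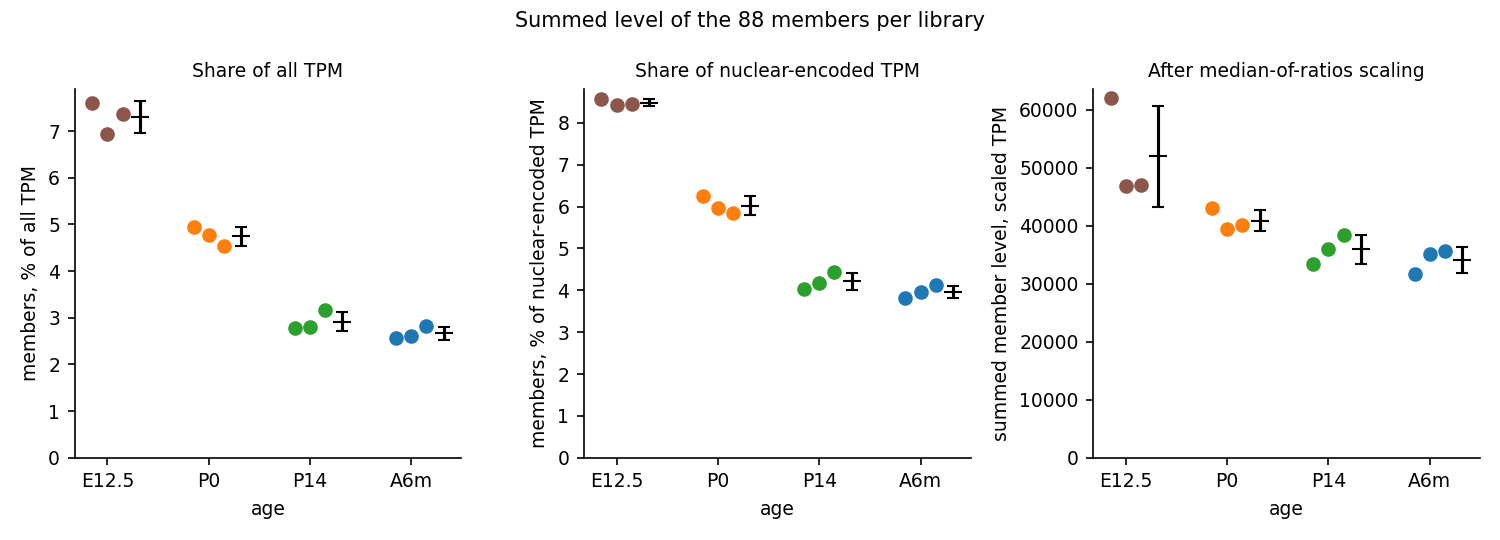
Summed level of the 88 members per library (points) with mean and SD over 3 libraries (bars), by age: as a percentage of all TPM, as a percentage of nuclear-encoded TPM, and as summed TPM after median-of-ratios scaling. The A6m mean is 2.67% of all TPM and the E12.5 mean 7.30%; after scaling the P14 and A6m libraries overlap, and E12.5 replicate 1 lies above the other E12.5 libraries.

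As deposited, most members were lower at P0 than at E12.5 and lower again at P14. At P0 against E12.5, 0 of 81 members were called higher and 72 lower (limma on log2(TPM + 1), Benjamini-Hochberg adjusted p under 0.05 over 17422 genes), where 18.6% of all tested genes were called higher and 43.7% lower. The median log2 difference was -0.64 for members and -0.27 for all genes. At P14 against P0, 1 member was called higher and 76 lower, beside 5.33% of all genes higher and 53.5% lower, with medians of -0.70 for members and -0.41 for all genes. At A6m against P14, 0 were called higher and 23 lower, beside 8.78% and 12.1% of all genes, with medians of -0.17 and -0.04. Over the whole span, A6m against E12.5, 1 was called higher and 79 lower, beside 15.2% and 62.0% of all genes; the member median of -1.50 corresponds to 0.353 of the E12.5 level, and that of all genes to 0.611. The F-test over the 4 ages called 80 of 81 members and 85.1% of all genes, so that calling by itself does not set members apart.

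Scaling by the median of ratios, which sets the median gene level between libraries, moved the median of all genes at A6m against E12.5 to -0.01, from -0.71 as deposited. Scaled, summed members came to 62044, 46876 and 46962 TPM at E12.5, 42991, 39516 and 40119 in P0 tissue, 33352, 36061 and 38401 at P14, and 31608, 35127 and 35629 at A6m. E12.5 replicate 1 stood above the other E12.5 libraries on this scale. At P0 against E12.5, 2 members were called higher and 47 lower, beside 29.0% and 31% of all genes, with a member median of -0.36. At P14 against P0 the scaled counts were 3 higher and 12 lower (14.8% of members lower), beside 22.7% and 19.8% of all genes, with a member median of -0.18. The 12 lower were all among the 76 called as deposited. At A6m against P14 the scaled counts were 0 and 7 (8.64% of members lower), beside 15.2% and 14% of all genes. In both of these later steps the share of members called lower was under that of all genes. At A6m against E12.5 the scaled counts were 1 and 66, beside 35.4% and 35.8%, with a member median of -0.65, or 0.637 of the E12.5 level. The F-test called 66 of 81 members and 79.8% of all genes on this scale. Without E12.5 replicate 1, the counts called lower as deposited were 70 at P0 and 79 at A6m against E12.5. With the other 11 libraries scaled, a fit chosen after seeing the data, 3 members were called higher and 40 lower at P0 against E12.5, beside 27.7% and 29.2% of all genes, with a member median of -0.23. At A6m against E12.5 this fit called 2 higher and 61 lower, beside 34.6% and 34.9%, with a member median of -0.51.

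**Figure D2:**
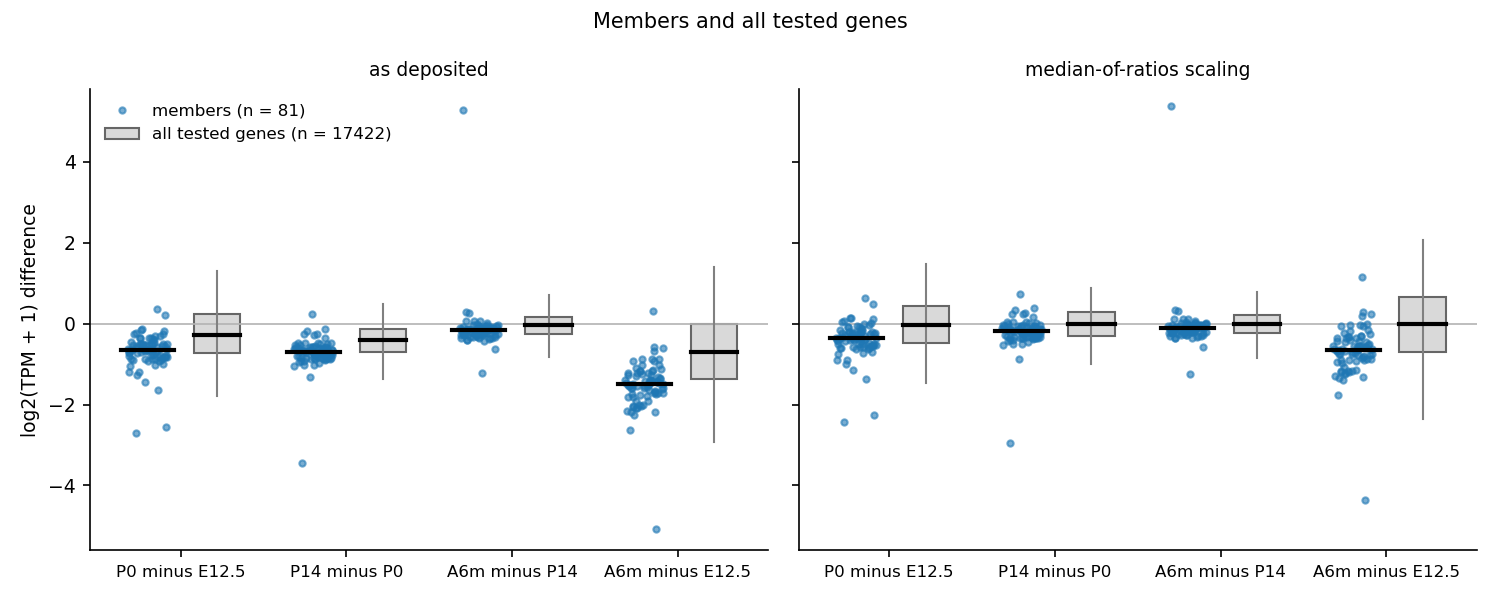
Difference in log2(TPM + 1) between ages for the 81 tested members (blue points, black line at the median) beside all 17422 tested genes (grey box from the 25th to the 75th percentile, line from the 5th to the 95th, black median), as deposited and after median-of-ratios scaling. The member median lies below the median of all genes in each comparison on either scale, and the point above 5 is Rps27 at A6m minus P14.

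Both subunits fell over the whole span, the small subunit somewhat more, a difference that was not tested. Of 48 tested large subunit members, 47 were called lower at A6m against E12.5, with a median of -1.43, and of 33 small subunit members 32 were, with a median of -1.60. After scaling these medians were -0.58 and -0.74. With near-identical rows added, as described further on, the small subunit held 42.3 to 43.6% of member TPM at E12.5, 42.3 to 43.0% in P0 tissue, 40.4 to 41.1% at P14 and 41.3 to 41.7% at A6m. The order of the members by level was mostly kept, with a Spearman correlation of 0.88 over the 81 members between the A6m and the E12.5 means, and of 0.80 with near-identical rows added; the members share their libraries, so this is a description.

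Among the members with the highest mean TPM were Rps24, a small subunit protein (1620 TPM), Rpl41, a very short peptide of the large subunit (1597 TPM), Rpl23a, at the exit of the peptide tunnel (1462 TPM), and Rps27, a zinc finger protein (1360 TPM). Rps24 had 2779, 3248 and 2723 TPM at E12.5, 1719, 1671 and 1697 in P0 tissue, 987, 1060 and 1025 at P14, and 787, 873 and 868 at A6m. Its groups did not overlap, and as deposited it fell in every comparison, by 1.79 on the log2 scale at A6m against E12.5 (SE 0.08, limma adjusted p = 3.5e-09). Scaled, the log2 difference of Rps24 was -0.49 at P0 against E12.5 and -0.93 over the whole span (limma adjusted p = 0.0034 and 2.3e-05), but -0.21 and -0.23 at the later steps (limma adjusted p = 0.16 and 0.17). Rpl41 fell less, with 1202 ± 54.9 TPM at A6m and 2261 ± 16.4 at E12.5 (SD, n = 3 each; log2 difference -0.91, SE 0.06, limma adjusted p = 1.4e-07). Scaled, that difference of Rpl41 was -0.06 (limma adjusted p = 0.65). Rpl23a fell by 1.92 (SE 0.07, limma adjusted p = 1.4e-09) as deposited.

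The 5 with the lowest mean among those tested were Rpl12 (11.6 TPM), Rps4l (27.5), Rpl7l1 (30.4), Rps12 (32) and Rpl27 (44.5). For Rpl12, Rps12 and Rpl27, core proteins of the ribosome, another row of the table carried nearly the same sequence at a far higher level. Gm10275, a transcribed processed pseudogene in GENCODE M21, averaged 625 TPM, 54.0 times Rpl12; Rps12-ps3 averaged 598 TPM, 18.6 times Rps12; and Rpl27-ps3 averaged 715 TPM, 16.1 times Rpl27. Levels of single members therefore depend on how reads were divided among such rows.

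To see how far this reaches, every stretch of 31 bases (the word length that kallisto uses by default) in the GENCODE M21 transcripts of each member was looked up in all other transcripts. In 260 rows outside the family at least 50% of these words, and at least 100 of them, were shared with a member; 49 of these rows averaged at least 1 TPM, 24 at least 20 TPM, and 11 more than their member. These rows together held 1.23 to 1.24% of all TPM at E12.5, 0.822 to 0.972% in P0 tissue, 0.556 to 0.611% at P14 and 0.452 to 0.483% at A6m. Adding each row to its member (an alternative chosen after the data were seen) left 82 members to test and gave 0 higher and 81 lower at A6m against E12.5, 73 lower at P0 against E12.5, 79 at P14 against P0 and 27 at A6m against P14, with a median of -1.45 at A6m against E12.5. As deposited, the family's fall thus stood with or without these rows, while values of single members moved.

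Rps27 showed the clearest exchange. Its row had 2383, 2074 and 2538 TPM at E12.5, 2117, 2105 and 8.99 in P0 tissue, 5.94, 3.07 and 1250 at P14, and 1221, 1243 and 1374 at A6m. Rps27rt, a single-exon copy on another chromosome, had 13.7, 22.9 and 19.6 TPM at E12.5, 10.8, 9.27 and 1766 in P0 tissue, 1001, 1008 and 4.84 at P14, and 4.39, 6.73 and 3.38 at A6m. In P0 replicate 3 and P14 replicates 1 and 2, the copy held the level and the parent was near 0, and in the other 9 libraries it was the reverse. Both coding sequences are 252 bases long without the stop codon and identical throughout, as their first 60 bases show beside those of the paralog Rps27l, in which capitals mark the bases that differ from Rps27. Rps27 lies at chr3:90212522-90213651 (minus strand), Rps27rt at chr9:114982366-114982739 (minus strand) and Rps27l at chr9:66946086-66949516 (plus strand) in GENCODE M21 on GRCm38.
Rps27: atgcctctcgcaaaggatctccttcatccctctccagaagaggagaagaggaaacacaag
Rps27rt: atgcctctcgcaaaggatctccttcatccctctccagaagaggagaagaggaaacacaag
Rps27l: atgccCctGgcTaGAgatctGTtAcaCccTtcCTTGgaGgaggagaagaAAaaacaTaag

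Rps27l differs from Rps27 at 60 of 252 coding bases, 18 of them in the stretch shown. The sum of Rps27 and Rps27rt was 2396, 2096 and 2558 TPM at E12.5, 2128, 2115 and 1775 in P0 tissue, 1006, 1011 and 1255 at P14, and 1225, 1249 and 1377 at A6m. Taken alone, Rps27 was called in none of the 4 comparisons, with log2 differences of -2.71, -3.43 and 5.28 in the 3 steps and -0.86 over the whole span, an SE of 2.26 each and limma adjusted p-values of 0.32, 0.21, 0.13 and 0.74. The value of Rps27, A6m against P14, was 7.91 and called without P14 replicate 3. That of Rps27, P14 against P0, was -6.01 without P0 replicate 3 and -6.06 without P14 replicate 3, and was called in both cases. Summed and as deposited, Rps27 did not pass the test at P0 against E12.5 (-0.23, limma adjusted p = 0.10). It fell by 0.88 at P14 against P0 (SE 0.11, limma adjusted p = 9.9e-05) and by 0.87 over the whole span (SE 0.11, limma adjusted p = 2.6e-05). Scaling divides by 1.23 to 1.57 at E12.5, 1.13 to 1.21 at P0, 0.778 to 0.837 at P14 and 0.743 to 0.815 at A6m. The fall at P14 against P0 is therefore smaller on that scale. Over the whole span the scaled sums of the E12.5 and A6m libraries overlap, and hardly any fall is left. The sum of Rps27 and Rps27rt averaged 1091 TPM at P14 and 1284 TPM at A6m. The libraries with the exchange had the lowest sums of their age. The P14 library without it, replicate 3, had 1255 TPM, within the A6m range of 1225 to 1377 TPM.

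Rpl5, which with Rpl11 forms a particle that can bind Mdm2, was the member called higher as deposited. Its row had 70.7, 77.4 and 84.1 TPM at E12.5, 83.4, 96.5 and 88.7 in P0 tissue, 113, 94.4 and 108 at P14, and 98.1, 95.5 and 95 at A6m. It was called higher at P14 against P0 (log2 difference 0.23, SE 0.09, limma adjusted p = 0.041) and at A6m against E12.5 (0.31, SE 0.09, limma adjusted p = 0.0059). Gm15500, a transcribed processed pseudogene whose 31-base words are shared with Rpl5 to 99.9%, had 1166, 1169 and 1121 TPM at E12.5, 681, 668 and 686 in P0 tissue, 372, 405 and 384 at P14, and 321, 314 and 329 at A6m. With its near-identical rows added, Rpl5 fell by 0.68, 0.64 and 0.24 in the 3 steps and by 1.55 over the whole span (limma adjusted p = 3.6e-07, 2.8e-06, 0.004 and 2.6e-10). Its own row went the other way at P0 against E12.5, P14 against P0 and A6m against E12.5, but not at A6m against P14.

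**Figure D3:**
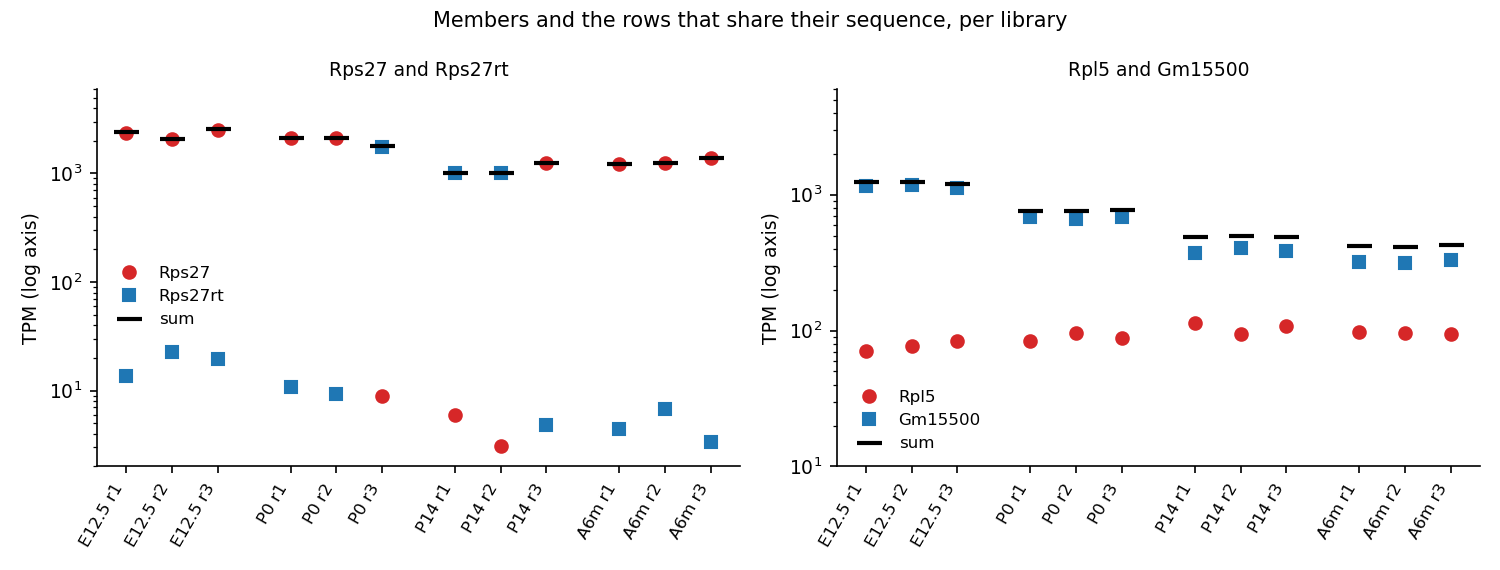
TPM per library (log axis; r1 to r3 are the replicates of each age) of Rps27 and Rps27rt and of Rpl5 and Gm15500, with black dashes for their sums. Rps27 and Rps27rt change places in P0 replicate 3 and P14 replicates 1 and 2 while the sum stays between 1006 and 2558 TPM; Gm15500 lies above Rpl5 in all 12 libraries.

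Other members moved less. Rps13, a core small subunit protein, differed by -1.27 at P0 against E12.5 alone and by -0.51 with its near-identical rows, Rps13-ps1 and Rps13-ps2 foremost. Rpl27 differed by -1.43 alone and by -0.74 with them. Rpl10, which joins the large subunit late, differed by -1.01 at P14 against P0 alone and by -0.43 with Rpl10-ps3 and the rest, and Rps20 by -1.02 and -0.78. As deposited, these values passed the test in either form. Scaled, the P14 against P0 difference of the Rpl10 row was -0.50 and that of Rps20 was -0.51 (limma adjusted p = 0.14 and 0.052). Rpl12 and Rps12 fell in either form at A6m against E12.5, with log2 differences of -1.92 and -1.54 alone and of -2.17 and -1.71 with them.

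Short sequence features were counted at the annotated starts of the members. RefSeq start windows on GRCm38.p6 (250 bases before and 50 after each start) were at hand for 75 starts of 63 members, with 25 members missing. An unbroken run of at least 8 C or T bases reaching within 10 bases of the start was present at 30 of 75 member starts (40.0%), at 2059 of 14703 starts of tested genes and at 13.7% of all 32851 starts. The member starts with the longest runs are given here with others that the results turn on, as 15 bases before the start and 15 from it, with the run in capitals as far as it lies in the window.
Rpl7a, chr2:26910792-26910821, plus strand: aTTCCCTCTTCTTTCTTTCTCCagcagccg
Rpl27a, chr7:109519180-109519209, plus strand: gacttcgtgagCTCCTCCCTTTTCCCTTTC
Rpl34, chr3:130730323-130730352, minus strand: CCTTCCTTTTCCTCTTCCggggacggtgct
Rpl35, chr2:39005117-39005146, minus strand: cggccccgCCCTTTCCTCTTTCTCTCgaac
Rplp2, chr7:141447636-141447665, plus strand: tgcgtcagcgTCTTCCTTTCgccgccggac
Rps6, chr4:86857353-86857382, minus strand: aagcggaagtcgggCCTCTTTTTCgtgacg
Rps24, chr14:24490663-24490692, plus strand: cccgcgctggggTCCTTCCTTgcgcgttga
Rps27, chr3:90213634-90213663, minus strand: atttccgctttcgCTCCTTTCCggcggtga
Rps27l, chr9:66946071-66946100, plus strand: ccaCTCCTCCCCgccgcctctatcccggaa
Rpl22l1, chr3:28805493-28805522, plus strand: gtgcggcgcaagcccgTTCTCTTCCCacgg
Rpsa, chr9:120127751-120127780, plus strand: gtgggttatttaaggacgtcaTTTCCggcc
Rpl7l1, chr17:46782642-46782671, minus strand: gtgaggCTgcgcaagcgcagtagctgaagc

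The paralogs Rps27l and Rpl22l1 carry such a run at these starts, and Rpl7l1 and Rpsa do not. Annotated starts can lie some bases from the ones used in this tissue. In the same 300-base windows and on both strands, CCGGAAG, the core of ETS family sites, was found at 27 of 75 member starts, 15.8% of starts of tested genes and 8.86% of all starts; its reverse complement holds pyrimidines and can overlap a run. GCCATNTTG, the core of YY1 sites, was found at 9.33%, 3.73% and 2.51%. CCGCCC, a core of Sp family sites, stood at 45 of 75 member starts and 59.6% of starts of tested genes, and TATAAA at 9.33% and 7.61%. These are matches of letters and not shown sites.

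The stalk of the large subunit recruits elongation factors. Rplp0, its base, had 929, 791 and 825 TPM at E12.5, 419, 438 and 419 in P0 tissue, 214, 237 and 252 at P14, and 194, 173 and 193 at A6m. As deposited, Rplp0 fell in all 4 comparisons and by 2.18 over the whole span (SE 0.08, limma adjusted p = 1.2e-09), whereas scaled its difference at A6m against P14 was -0.27 (limma adjusted p = 0.13). Rplp1 and Rplp2, the arms bound to it, fell by 1.37 (SE 0.10, limma adjusted p = 2.6e-07) and 1.54 (SE 0.13, limma adjusted p = 6.0e-07) over the whole span as deposited. The median of all genes on that scale was -0.71. Between P14 and A6m, Rplp1 and Rplp2 did not pass the test (log2 differences 0.06 and -0.14, limma adjusted p = 0.74 and 0.52).

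Rpsa, a small subunit protein also known as the laminin receptor precursor, had the largest fall of the members other than Rps4l. It had 1056, 1096 and 919 TPM at E12.5, 326, 328 and 325 in P0 tissue, 193, 197 and 212 at P14, and 165, 158 and 170 at A6m. No 2 ages overlapped, and the fall was 1.64 at P0 against E12.5 (SE 0.07, limma adjusted p = 2.0e-08) and 2.63 at A6m against E12.5 (SE 0.07, limma adjusted p = 1.6e-10). Scaled, these falls were 1.36 and 1.78 (limma adjusted p = 2.2e-06 and 1.0e-07). Rps6, the substrate of the S6 kinases, had 491 ± 6.75 TPM at A6m and 1200 ± 164 at E12.5 (SD, n = 3 each), a log2 difference of -1.28 as deposited (SE 0.09, limma adjusted p = 1.6e-07). Rps2, near the mRNA entry channel, and Rpl10a, of the L1 stalk, had log2 differences of -2.03 and -2.25 over the whole span (limma adjusted p = 1.7e-09 and 1.2e-07). Rpl29, a small basic protein of the large subunit, fell at each step as deposited, by 0.63 at A6m against P14 (SE 0.08, limma adjusted p = 3.0e-04). Scaled, Rpl29 differed by -0.06 at P14 against P0 and by -0.58 at A6m against P14 (limma adjusted p = 0.68 and 0.0030).

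Members differed in how far they fell. On a scale centred on the median of the tested members, 27 were called higher and 18 lower at A6m against E12.5, where 66.4% of all genes were higher and 12.3% lower. These counts are of single rows, which depend on how reads were divided. The highest value, 1.88, is that of the Rpl5 row, which fell once its near-identical rows were added. With such rows added, the differences as deposited ran from -5.09 to -0.25. Rps21, a small subunit protein, had 965, 744 and 958 TPM at E12.5, 787, 781 and 690 in P0 tissue, 484, 424 and 555 at P14, and 563, 554 and 674 at A6m. Rps21 fell by 0.57 over the whole span as deposited (SE 0.13, limma adjusted p = 0.0018), had a scaled log2 difference of 0.28 (limma adjusted p = 0.11) and was 1.00 above the family median (limma adjusted p = 7.0e-07). Rps15a was not called at P0 against E12.5 (-0.16, limma adjusted p = 0.39) and fell by 0.91 at P14 against P0 as deposited (SE 0.15, limma adjusted p = 4.9e-04). Scaled, that difference of Rps15a was -0.40 (SE 0.18, limma adjusted p = 0.095). Rpl21, a large subunit protein, fell by 0.18 at P14 against P0 as deposited (limma adjusted p = 0.017) and was higher by 0.33 after scaling (limma adjusted p = 0.020).

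**Figure D4:**
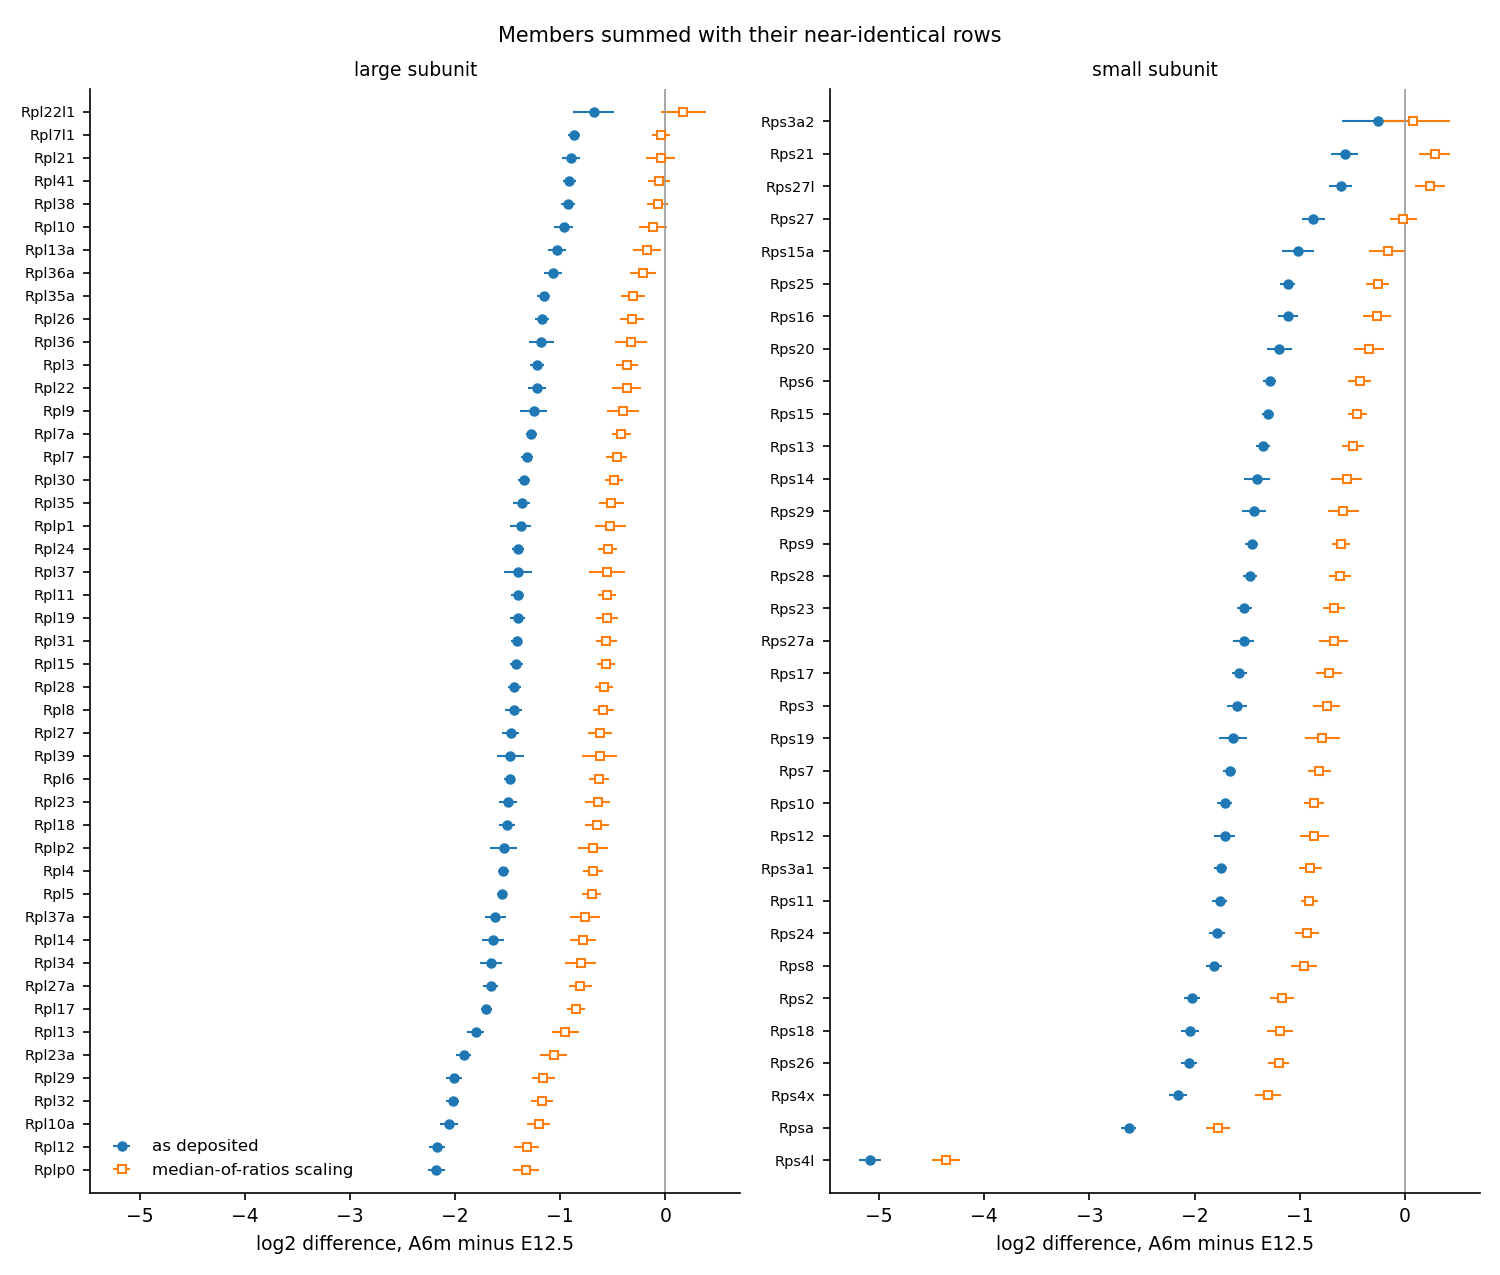
Log2 difference of A6m minus E12.5 for 80 of the 82 tested members, each summed with its near-identical rows (points, with SE from the fit), as deposited (filled circles) and after median-of-ratios scaling (open squares), for the large and small subunits. Rps4l and Rpsa have the largest falls, of 5.09 and 2.63 as deposited, and after scaling 76 of the 80 lie below 0.

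Several members have a paralog under another name, and the percentage of a paralog to its parent in the same library does not depend on scaling. Of the 7 paralogs, Rpl3l, known from muscle, and Rpl39l and Rpl10l, known from testis, did not pass the filter: Rpl10l was listed at 0 in all 12 libraries, Rpl3l reached 0.845 TPM and Rpl39l 0.609 TPM at most. The other 4 were tested by an exact permutation test of the F statistic over the 4 ages, two-sided by construction, with Benjamini-Hochberg adjustment over the 4 ratios. The smallest p that 15400 partitions allow is 6.49e-05. The tested ratio was a difference in log2(TPM + 1), and the added 1 makes it depend on scale for a paralog near 1 TPM. With 0.1 or 5 added instead, the exact permutation p of Rps4l was 6.49e-05 and 2.6e-04.

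Rps4l had the steepest profile in the family. GENCODE M21 lists it as a transcribed processed pseudogene on chromosome 6, and it matches Rps4x at 79.9% of 783 aligned coding bases, and shares 26.0% of its 31-base words with other symbols. Rps4l had 88.9, 95 and 82.9 TPM at E12.5, 14.7, 14.1 and 14.1 in P0 tissue, 4.62, 5.49 and 5.33 at P14, and 1.54, 1.38 and 2.07 at A6m. No 2 ages overlapped, and Rps4l fell by 2.55, 1.32 and 1.21 in the 3 steps and by 5.09 over the whole span (SE 0.10, limma adjusted p = 3.9e-11); after scaling the log2 difference over the whole span was -4.36. As a percentage of Rps4x it was 6.62, 8.94 and 6.61 at E12.5, 2.25, 2.22 and 2.24 in P0 tissue, 1.27, 1.61 and 1.37 at P14, and 0.570, 0.523 and 0.733 at A6m (exact p = 6.49e-05, the smallest possible, adjusted p = 2.6e-04).

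Rpl22l1 did not share the fall of its parent before birth. Rpl22, an RNA-binding protein of the large subunit, had 772, 714 and 736 TPM at E12.5, 456, 416 and 409 in P0 tissue, 308, 383 and 316 at P14, and 303, 326 and 324 at A6m. Rpl22l1 had 354, 267 and 416 TPM at E12.5, 533, 356 and 435 in P0 tissue, 295, 250 and 248 at P14, and 175, 213 and 258 at A6m. Its difference at P0 against E12.5 did not pass the test as deposited (0.35, SE 0.19, limma adjusted p = 0.13) and did after scaling (0.64, SE 0.21, limma adjusted p = 0.023). As a percentage of Rpl22 it was 46.6 at E12.5, 103 in P0 tissue, 79.9 at P14 and 67.7 at A6m on average, and every P0 library (117, 85.5 and 106) lay above every E12.5 library (45.8, 37.4 and 56.5; exact permutation p over the 4 ages = 0.0032, adjusted p = 0.0042).

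Rpl7l1, a large subunit paralog that shares 61.0% of 282 aligned coding bases with Rpl7, stayed at a few percent of its parent. Rpl7l1 averaged 23.1 TPM at A6m and 43.1 TPM at E12.5, a log2 difference of -0.87 as deposited (SE 0.06, limma adjusted p = 9.4e-08) and of -0.04 scaled (SE 0.08, limma adjusted p = 0.68), while Rpl7 averaged 432 TPM at A6m and 1077 TPM at E12.5. The ratio averaged 4.02% at E12.5, 3.61% in P0 tissue, 4.62% at P14 and 5.35% at A6m (exact permutation p = 7.1e-04, adjusted p = 0.0014). Rps27l, known as a target of p53, had 347, 326 and 351 TPM at E12.5, 303, 269 and 363 in P0 tissue, 274, 277 and 300 at P14, and 197, 230 and 244 at A6m. It was not called at P0 against E12.5 or P14 against P0 (limma adjusted p = 0.28 and 0.34) and fell by 0.61 over the whole span as deposited (SE 0.11, limma adjusted p = 3.1e-04). Scaled, the whole-span difference of Rps27l was 0.24 (SE 0.15, limma adjusted p = 0.16). Against the Rps27 row alone its ratio missed the threshold (exact permutation p = 0.060, adjusted p = 0.060) and came to 0.019 without P0 replicate 3 and 0.047 without P14 replicate 3. Against Rps27 and Rps27rt summed, chosen after the exchange had been seen, it averaged 14.6% at E12.5, 15.8% in P0 tissue, 26.2% at P14 and 17.4% at A6m (exact permutation p = 0.0082, adjusted p = 0.0082), and every P14 library lay above those of the other ages. The libraries with the exchange had the highest ratios of their age, 20.5% in P0 replicate 3 and 27.3 and 27.4% in P14 replicates 1 and 2. P14 replicate 3, without it, had 23.9%. The part of the exchange in this ratio was not tested.

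**Figure D5:**
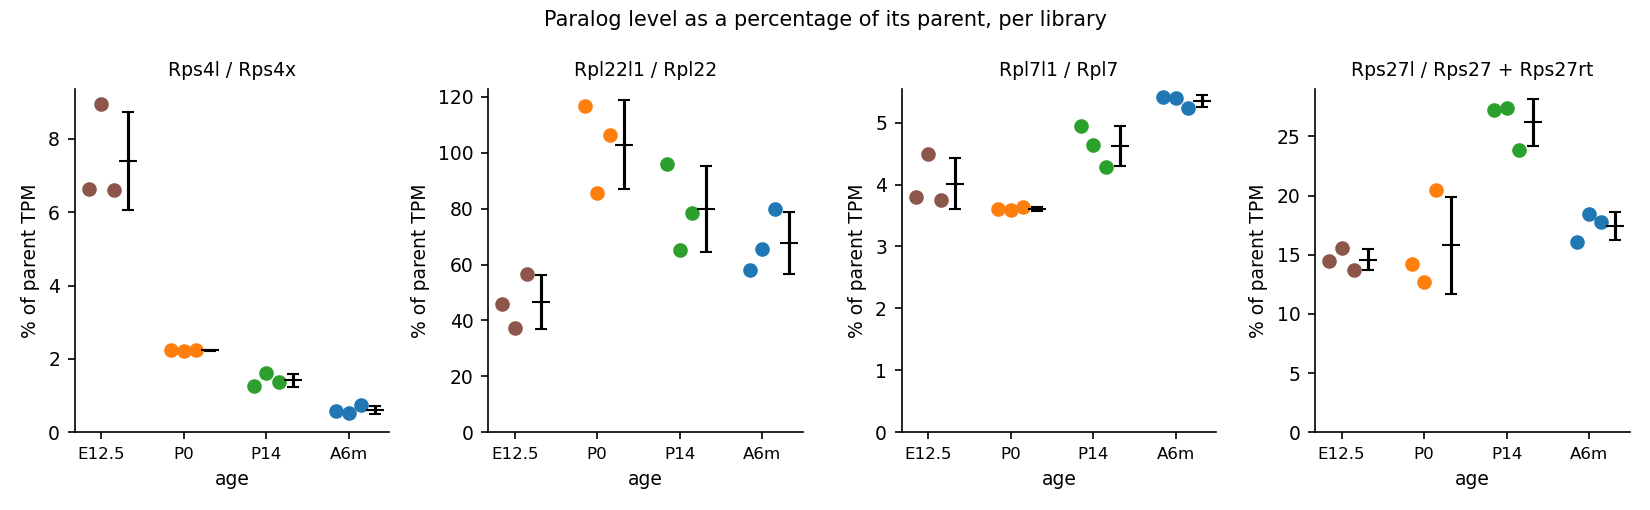
TPM of 4 paralogs as a percentage of the parent TPM in the same library (points) with mean and SD over 3 libraries (bars), by age; Rps27l is set against the sum of Rps27 and Rps27rt. Rps4l averages 7.39% at E12.5, 2.24% in P0 tissue, 1.42% at P14 and 0.609% at A6m, and Rpl22l1 is highest at P0 with a mean of 103%.

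The 4 X-linked members fell with the rest as deposited. Rps4x had 1343, 1063 and 1254 TPM at E12.5, 653, 637 and 629 in P0 tissue, 365, 341 and 388 at P14, and 270, 264 and 282 at A6m, a log2 difference of -2.15 over the whole span (SE 0.08, limma adjusted p = 1.7e-09). Rpl10, Rpl36a and Rpl39, the last in the peptide tunnel, fell with log2 differences of -1.53, -1.21 and -1.47 (limma adjusted p = 1.6e-04, 2.7e-04 and 1.2e-06). Scaled, Rpl10, Rpl36a and Rpl39 had differences of -0.68, -0.36 and -0.62 (limma adjusted p = 0.034, 0.19 and 0.0059). The near-identical row Rpl10-ps3 averaged 4.60 times the Rpl10 row. Over the whole span Rpl10-ps3 differed by -0.84 as deposited and by 0.01 scaled (limma adjusted p = 9.1e-07 and 0.94). With near-identical rows added, the 4 held 4.07 to 4.68% of member TPM at E12.5, 4.31 to 4.40% in P0 tissue, 4.46 to 4.70% at P14 and 4.60 to 4.78% at A6m. Given the Xist and Ddx3y values above, age and the make-up of the libraries by sex cannot be told apart for these genes in comparisons with E12.5 or A6m. In those comparisons the same holds for all members. All P0 and P14 libraries were low in Xist and held Ddx3y.

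Proteins of the ribosome outside the naming rule fell as well as deposited. Rack1, a scaffold on the head of the small subunit, had 530, 428 and 494 TPM at E12.5, 268, 265 and 259 in P0 tissue, 125, 134 and 146 at P14, and 114, 104 and 117 at A6m, a log2 difference of -2.10 over the whole span (SE 0.09, limma adjusted p = 2.4e-09) and of -1.25 scaled (limma adjusted p = 4.4e-06). Fau, which encodes a small subunit protein fused to a ubiquitin-like protein, fell by 0.99 as deposited (SE 0.10, limma adjusted p = 2.5e-06) and had a scaled difference of -0.14 (limma adjusted p = 0.40). Rpl36al, a close relative of Rpl36a, fell by 0.59 (SE 0.07, limma adjusted p = 2.1e-05), and after scaling was higher by 0.26 (limma adjusted p = 0.046).

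Mitochondrial ribosomal proteins, which build the separate ribosome inside mitochondria, are given for comparison. Of 78 tested, 3 were called higher and 57 lower at A6m against E12.5, with a median of -0.55, beside 15.2% and 62.0% of all genes; after scaling 42 were called higher and 7 lower, with a median of 0.28, beside 35.4% and 35.8%, while the cytosolic members had 1 and 66 and a median of -0.65. At P14 against P0 after scaling, 46 of the 78 were called higher and 1 lower, with a median of 0.31, beside 22.7% and 19.8% of all genes. The difference between these families was not tested.

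Factors that make and use ribosomes mostly fell as deposited. Of 101 tested ribosome biogenesis genes, 89 were called lower and 2 higher at P0 against E12.5, with a median of -0.72, beside 43.7% and 18.6% of all genes, and after scaling 76 and 7, beside 31% and 29.0%. At P14 against P0, 69 were lower and 1 higher, beside 53.5% and 5.33%, and after scaling 3 were lower and 22 higher, beside 19.8% and 22.7%. Nop56 and Nop58, core proteins of the particles that methylate ribosomal RNA, fell by 1.66 and 1.58 at P0 against E12.5 (limma adjusted p = 3.7e-07 and 3.1e-07). Polr1a, the large subunit of the polymerase that transcribes ribosomal RNA, went the other way, with 26.2, 32.2 and 25.4 TPM at E12.5, 86.1, 82.6 and 88 in P0 tissue, 131, 121 and 122 at P14, and 151, 141 and 140 at A6m (log2 difference 2.33 over the whole span, limma adjusted p = 1.1e-09).

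Of 42 genes listed for translation initiation, 40 were called lower and 0 higher at A6m against E12.5, with a median of -0.97, and after scaling 20 and 6. Of all genes, 62.0% were lower and 15.2% higher in this comparison, with a median of -0.71, and after scaling 35.8% and 35.4%, with a median of -0.01. Eif4a1, the helicase that opens mRNA, and Pabpc1, the poly(A) binding protein, had log2 differences of -2.15 and -2.42 (limma adjusted p = 3.3e-08 and 3.6e-08). Eif4ebp1, an inhibitor of initiation that mTOR controls, had 3.56, 4.49 and 4.23 TPM at P0 and 16, 23.8 and 13.4 TPM at E12.5 (log2 difference -1.84, limma adjusted p = 1.5e-05). Of 15 genes listed for translation elongation, 12 were lower and 2 higher at A6m against E12.5 as deposited, and 6 and 4 after scaling, beside the same shares of all genes. Not all in this list are elongation factors, Eef2k and Eef1e1 among them. The 2 higher as deposited were Eif5a2 (log2 difference 0.26, limma adjusted p = 0.016) and Eef1a2, which averaged 1.59 TPM at A6m and 0.343 at E12.5 (log2 difference 1.00, limma adjusted p = 0.0031). Of 18 regulators in the Myc and mTOR pathways, which drive ribosome production, 17 were lower and 1 higher at A6m against E12.5 as deposited, and 9 and 6 after scaling, beside those shares. At P0 against E12.5, 11 were lower and 2 higher, beside 43.7% and 18.6% of all genes. The 2 higher were Rheb, the GTPase that activates mTOR (0.47, limma adjusted p = 4.6e-04), and Mxd4, a repressor that competes with Myc for its partner Max (0.83, limma adjusted p = 1.1e-05); Rheb was also the 1 higher at A6m. Myc had 1.12, 1.03 and 1.02 TPM at P0 and 7.10, 10.9 and 8.26 TPM at E12.5 (log2 difference -2.23, limma adjusted p = 3.4e-07). Mycn fell by 2.09 (limma adjusted p = 3.4e-06) and Mycl by 1.01 (limma adjusted p = 3.1e-04) in the same comparison.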

How the data were processed

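Total RNA of 12 choroid plexus libraries was prepared with the Kapa mRNA HyperPrep Kit, per the labels' protocols. The authors deposited TPM values (length-normalized transcript abundance on a fixed sum) per gene symbol; kallisto and GRCm38 are named in the submitters' processing notes, without a version or an annotation release. TPM sets each library to the same sum and keeps no read depth, so depth is unknown and no counting interval was given; a rise of abundant transcripts lowers all others. In the table, 7 columns were not used. Columns were matched to samples by title. The labels describe the replicates as independent specimens without naming the animals.

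Genes with at least 1 TPM in at least 3 of the 12 libraries (17422) were tested on log2(TPM + 1) with limma 3.58.1 in R 4.3.3 (4 group means, trended eBayes, Benjamini-Hochberg over all tested genes, threshold 0.05); log2 differences understate changes of genes near 1 TPM. Scaling used median-of-ratios factors over 19075 genes. The fit was tested on simulated data. Ratios were tested exactly. Members and lists were chosen with earlier results of these data known, and the 31-base word and start-window measures after the data were seen. Named genes were the 5 highest and 5 lowest members, the 4 largest differences in either direction per comparison, the paralogs and parents, stalk, X-linked and outside-rule genes, Rpsa and Rps6, and at most 2 called genes in either direction per list and comparison; Rpl7a, Rpl27a, Rpl34 and Rpl35 were shown for their start windows. Some genes that this rule names are not reported here. No protein sequence was used here.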

Additional observations from a re-analysis of the deposited data

How the results depend on the processing

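Of 4016 values of named genes under other settings, 3581 kept direction and side of the threshold, 293 lost the call, 55 gained it and 87 changed sign; of the 1152 values with 1 library left out, 1089 kept both, 52 lost the call, 11 gained it and 0 changed sign. The cause of these changes was not tested. TPM holds no counts, so what depth limits cannot be given.

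At P0 against E12.5, members called higher numbered 2 with median-of-ratios scaling, 2 without mitochondrially encoded genes, 3 with quantile normalization, 2 without the 10 most abundant genes and 26 when centred on the member median, and those called lower 47 with median-of-ratios scaling, 40 with the 11 libraries scaled that are left without E12.5 replicate 1, which also gave 3 higher, 10 when centred and 20 when tested against a 1.5-fold change. At P14 against P0, 3 were higher with median-of-ratios scaling, 7 when centred and 0 with no filter, the replicate block, the 1.5-fold test, near-identical rows added or only the 6 libraries; 12 were lower with median-of-ratios scaling, 15 when centred and 12 in the 1.5-fold test. At A6m against P14, 1 was higher without mitochondrially encoded genes, 1 with quantile normalization and 2 when centred, and 7 were lower with median-of-ratios scaling, 4 when centred, 36 with array quality weights and 1 in the 1.5-fold test. At A6m against E12.5, 27 were higher and 18 lower when centred, 0 higher in the 1.5-fold test or with near-identical rows added, and 2 higher with the 11 libraries scaled. The F-test called 50 when centred. The member share was 8.48, 6.02, 4.21 and 3.96% of nuclear-encoded TPM at E12.5, P0, P14 and A6m, 8.82, 7.03, 4.99 and 4.51% without the 10 most abundant genes, 8.09, 5.30, 3.28 and 2.99% with annotated pseudogene rows, and 8.54, 5.63, 3.51 and 3.14% with near-identical rows. The adjusted p of Rps27l to Rps27 was 0.0082 with the parent summed.

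With 1 library left out, 0 to 1 members were higher and 70 to 75 lower at P0 against E12.5, 0 to 1 higher and 74 to 77 lower at P14 against P0, 0 to 1 higher and 15 to 23 lower at A6m against P14 (15 without P14 replicate 3 or A6m replicate 2), and 1 higher and 79 lower at A6m against E12.5. The adjusted p of Rps27l to Rps27 ranged over 0.019 to 0.25. Same-numbered libraries did not deviate together (Pearson r of -0.08 to 0.11 over genes). No pairing by number was seen, though shared handling was not tested. With the replicate as a block, 73, 76, 21 and 79 members were lower in the 4 comparisons and 0, 0, 0 and 1 higher. The F-test of that fit called 80.

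Centred on the member median, the P0 against E12.5 log2 difference turned to 0.23 for Rpl41, 0.23 for Rpl7l1, 0.57 for Rps15a, 0.59 for Rps27l, 0.10 for Rps20, 0.18 for Rpl21, 0.0066 for Rplp1, 0.49 for Rps21, 0.077 for Rplp2, 0.12 for Rpl36a, 0.22 for Rpl39, 0.33 for Fau, 0.34 for Rpl36al, 0.25 for Rpl3, 0.37 for Rpl7, 0.022 for Rps6. Centred on the member median, the P14 against P0 log2 difference turned to 0.37 for Rpl41, 0.0047 for Rps12, 0.40 for Rpl7l1, 0.15 for Rpl12, 0.52 for Rps27l, 0.46 for Rpl21, 0.066 for Rpl29, 0.055 for Rps2, 0.013 for Rps21, 0.57 for Rpl36al, 0.034 for Rpl7, 0.29 for Rpl22, 0.14 for Rps6, 0.26 for Nop56, 0.20 for Nop58, 0.018 for Myc, 0.088 for Eif4a1, 0.052 for Pabpc1, 0.45 for Eif5a2, 0.61 for Rheb. Centred on the member median, the A6m against E12.5 log2 difference turned to 0.65 for Rpl41, 0.028 for Rps12, 0.69 for Rpl7l1, 0.55 for Rps15a, 0.95 for Rps27l, 0.89 for Rpl22l1, 0.68 for Rpl21, 0.19 for Rplp1, 0.039 for Rpl10, 1.00 for Rps21, 0.027 for Rplp2, 0.35 for Rpl36a, 0.091 for Rpl39, 0.57 for Fau, 0.98 for Rpl36al, 0.35 for Rpl3, 0.25 for Rpl7, 0.34 for Rpl22, 0.29 for Rps6, 1.18 for Mxd4. Scaled by the median of ratios, the P14 against P0 log2 difference turned to 0.24 for Rpl41, 0.25 for Rpl7l1, 0.33 for Rpl21, 0.45 for Rpl36al, 0.16 for Rpl22, 0.015 for Rps6, 0.11 for Nop56, 0.066 for Nop58, 0.29 for Eif5a2, 0.47 for Rheb. Scaled by the median of ratios, the A6m against E12.5 log2 difference turned to 0.24 for Rps27l, 0.18 for Rpl22l1, 0.28 for Rps21, 0.26 for Rpl36al, 0.45 for Mxd4. After quantile normalization, the P0 against E12.5 log2 difference turned to 0.32 for Rps15a, 0.10 for Rpl7. After quantile normalization, the P14 against P0 log2 difference turned to 0.14 for Rpl7l1, 0.052 for Rpl21, 0.0016 for Nop56, 0.24 for Eif5a2, 0.23 for Rheb. After quantile normalization, Rpl12, P14 against P0, turned to 0.0098. After quantile normalization, the A6m against E12.5 log2 difference turned to 0.21 for Rps21, 0.22 for Mxd4. With near-identical rows added, the P0 against E12.5 log2 difference turned to -0.68 for Rpl5. With near-identical rows added, the P14 against P0 log2 difference turned to -0.64 for Rpl5. With near-identical rows added, the A6m against E12.5 log2 difference turned to -1.55 for Rpl5. Rescaled without mitochondrially encoded genes, the P14 against P0 log2 difference turned to 0.0061 for Rpl21. Rescaled without the 10 most abundant genes, the P14 against P0 log2 difference turned to 0.026 for Rpl21. On that scale Mxd4, A6m against E12.5, turned to 0.088.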
